A study of Mus musculus with 3 samples.

Results

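The genes described here make sterols and long-chain fatty acids in the cell. They are a named list of 31 genes, and each was matched to its probes by current gene symbol, through the probe's accession where possible. By role, 18 belong to the sterol branch (17 enzymes and a sterol carrier protein), 5 regulate synthesis, and 8 belong to the fatty acid branch. All 31 had a probe on the array, 61 probes in all, and 30 were well above background on at least 1 array, of 14562 such genes on the whole array. The desaturase gene Fads2 was not well above background on any array, and Cyp51 was not at 70 nmol.

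The RNA came from peritoneal macrophages of 8-week-old Swiss albino males and was read on 3 Agilent mouse arrays with a single dye. Each of the 3 groups had 10 mice and is represented by 1 array. In order of dose, the groups were control mice given TPA alone, mice given TPA with 35 nmol hexavalent chromium, Cr(VI), and mice given TPA with 70 nmol Cr(VI). All mice, controls included, had received 125 µg lipopolysaccharide (LPS) into the peritoneum on day 0, and 100 ng TPA, a phorbol ester tumour promoter, on day 4. The chromium was given with the TPA as potassium dichromate, and the protocols state the same doses as nmol of that salt. Cells were washed out 4 days later. It is not stated whether an array holds RNA of 1 mouse or of pooled mice. The study's title names lipoic acid, which none of the arrays analysed here received.

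Cells make cholesterol from acetyl-CoA through the mevalonate pathway, and long-chain fatty acids through acetyl-CoA carboxylase and fatty acid synthase, followed by elongation and desaturation. When membrane sterol is low, the escort protein SCAP carries SREBP transcription factors to the Golgi, where they are cut and released to the nucleus. When sterol is plentiful, INSIG proteins hold SCAP in the endoplasmic reticulum. SREBP-2 mainly drives the sterol genes and SREBP-1c mainly the fatty acid genes, usually beside NF-Y and Sp1. In macrophages, which take up lipid from dead cells and lipoproteins, these programmes change during inflammatory activation.

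With 1 array per group there was no test, and no spread between animals could be measured. Each level is log2 of the processed signal minus the 75th percentile of its array, so 0 is the level of that percentile. Levels of different genes cannot be set against each other, since each comes from its own probe. A difference carries the error of the scanner software, whose median over the members was 0.21 on the log2 scale. A second measure of technical spread is the SD between the probes of a gene, with a median of 0.11 in the 70 nmol comparison over 4122 genes. All members are compared with the median of all measured genes, which was 0.04 (70 nmol minus control), 0.04 (35 nmol minus control) and 0.00 (70 minus 35 nmol). Scaling on spike-in RNA lowered every difference from the control by 0.36 at 70 nmol and by 0.42 at 35 nmol. Directions below are therefore relative to that median, which moves with the scaling.

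Of 41174 probes, 20200 in control cells, 18910 at 35 nmol and 18564 at 70 nmol were well above background. All 8 markers behind the macrophage label were well above background on every array. Without Lyz2, whose brightest probe was saturated on all 3 arrays, their summed scaled signals were 453 in control cells, 457 at 35 nmol and 400.4 at 70 nmol. Markers of other cells moved between the arrays. Liver makes much of the body's sterol and fatty acid. In control cells 11 of 13 hepatocyte markers on the array were well above background with a sum of 22.5, at 35 nmol 12 with a sum of 71.4, and at 70 nmol 1 with a sum of 0.55. Ttr was not well above background on any array. Adipocyte markers summed to 20.0 in control cells, 30.4 at 35 nmol and 12.4 at 70 nmol, and without Fabp4, which macrophages also make, to 5.67, 7.08 and 6.54. Of the adipocyte markers, Adipoq, Cidec, Cidea, Lep and Cfd were not well above background on any array. Plin1, Retn, Lipe, Pnpla2 and Fabp4 were on every array, and Plin4 was in control cells only. Large peritoneal macrophage markers summed to 296, 262 and 136 at 0, 35 and 70 nmol, and fibroblast markers to 9.59, 10.9 and 32.7. Markers of monocytes and small peritoneal macrophages summed to 92.4, 110 and 133. A sum is weighted to the brightest probes, and this one is mostly Plac8 (levels 6.33, 6.61 and 6.75). At 35 nmol F13a1 differed from control by -0.08, Ccr2 by 0.18 and Irf4 by 0.04. All 6 B cell markers were well above background on every array, with sums of 261, 252 and 204. Mast cell markers summed to 24.4, 13.5 and 7.54, neutrophil markers to 7.02, 3.32 and 11.9, and erythroid markers to 67.0, 11.6 and 35.3. The part of these cells in the results below was not tested. In such bulk samples fewer cells of a type and less RNA per cell cannot be told apart.

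Promoters of 24 members were in the RefSeq table of build GRCm38.p6, as 32 windows of 300 bases. The table did not match Fdps, Fdft1, Sqle, Stard4, Scd1, Scd2 or Fads1. The windows run from 250 bases before the annotated start to 50 after it. Each was searched on both strands for TCACNCCAC, a form of the sterol regulatory element, for CCAAT, the core bound by NF-Y, and for GGGCGG, the core bound by Sp1. The CCAAT motif was present for 13 of 14 sterol branch genes with a promoter, for 4 of 5 regulators and for 2 of 5 fatty acid branch genes, against 41.1% of all 27025 genes in the table. Acat2 was the sterol branch gene without it and Scap the regulator, and in the fatty acid branch it was found for Acly and Fasn. The GGGCGG motif was present for 13 of 14 sterol branch genes, 5 of 5 regulators and 2 of 5 fatty acid branch genes, against 38.2% of all genes. A gene counted if any of its windows matched, and the 5 regulators had 10 windows. By window, CCAAT was in 13 of 17, 5 of 10 and 2 of 5 in the same order, against 37.4% of all 32851 windows. GGGCGG was in 14 of 17, 8 of 10 and 2 of 5, against 35.7%. The TCACNCCAC form was found for Hmgcs1 alone among the members, against 1.44% of all genes. These are matches of letters and were not set against any measurement of binding.

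The following windows show the 180 bases before the start on the gene's strand, with TCACNCCAC and CCAAT matches of either strand in capitals. They come from 3 genes with a higher level at 70 nmol than in control cells (Hmgcs1, Mvk and Mvd), from Idi1, which had the lowest difference in the sterol branch, and from Fasn, of the fatty acid branch. The array's design places the Idi1 probe on chromosome 2, away from the window printed here, and whether it reports this gene was not tested. The windows are chr13:119690171-119690350 (plus strand) for Hmgcs1, chr5:114444089-114444268 (plus strand) for Mvk, chr8:122443423-122443602 (minus strand) for Mvd, chr13:8885426-8885605 (plus strand) for Idi1 and chr11:120824548-120824727 (minus strand) for Fasn. Hmgcs1 carries the TCACCCCAC match 137 bases before its start, the Mvk window holds 5 CCAAT matches, and in Fasn a pair on opposite strands overlaps.
Hmgcs1: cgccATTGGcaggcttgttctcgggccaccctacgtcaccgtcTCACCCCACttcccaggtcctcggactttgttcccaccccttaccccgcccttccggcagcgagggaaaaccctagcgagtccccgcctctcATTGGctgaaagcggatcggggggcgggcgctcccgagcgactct
Mvk: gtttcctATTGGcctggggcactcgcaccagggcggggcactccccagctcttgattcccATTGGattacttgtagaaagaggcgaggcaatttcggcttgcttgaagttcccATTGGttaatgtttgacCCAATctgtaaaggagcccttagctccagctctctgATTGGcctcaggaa
Mvd: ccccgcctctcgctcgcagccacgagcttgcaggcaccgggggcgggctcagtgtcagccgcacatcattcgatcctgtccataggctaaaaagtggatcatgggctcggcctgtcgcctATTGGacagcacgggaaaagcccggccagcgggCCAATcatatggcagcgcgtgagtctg
Idi1: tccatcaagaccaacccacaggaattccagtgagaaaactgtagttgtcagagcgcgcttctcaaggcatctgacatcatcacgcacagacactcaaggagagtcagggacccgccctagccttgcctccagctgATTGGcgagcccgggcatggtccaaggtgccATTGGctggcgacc
Fasn: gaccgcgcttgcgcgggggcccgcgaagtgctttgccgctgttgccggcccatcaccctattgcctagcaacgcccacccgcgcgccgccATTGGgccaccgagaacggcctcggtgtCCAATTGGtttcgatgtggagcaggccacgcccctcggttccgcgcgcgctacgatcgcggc

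At 70 nmol most sterol branch genes lay above the median of all measured genes, and most fatty acid branch genes lay below it. In the sterol branch 11 of 17 measured genes were above that median, against 50% of all genes by definition, with a median difference from control of 0.26, or 0.23 above that of all genes. In the fatty acid branch 1 of 7 was above it, with a median difference of -0.31, or -0.34 relative to all genes. The changes were small: no member was at least 2-fold higher, against 1.63% of all 12541 measured genes, and 1 member, Fads1, was at least 2-fold lower, against 1.08%. At 1.5-fold, 4 members were higher (Scd2, Sqle, Mvd and Fdps), against 5.55% of all genes, and Fads1 was lower, against 3.83%. Beyond 2 scanner errors, 7 members were higher (Pmvk, Mvd, Fdps, Fdft1, Sqle, Dhcr7 and Scd2), against 8.94% of all genes, and 3 were lower (Idi1, Acaca and Fads1), against 6.2%. Across the alternative settings in which they were measured, 10 of the 11 sterol branch genes above the median of all genes stayed above it, as did Scd2, and all 6 fatty acid branch genes below it stayed below. Spike-in scaling and scaling on the median of detected probes shift all differences equally, so they could not move a gene across that median. The deposited values, equal to the processed signal minus a constant per array, could hardly do so.

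At 35 nmol the sterol branch again lay mostly above the median of all measured genes, with 15 of 18 measured genes above it and a median difference from control of 0.19. The fatty acid branch lay near it, with 3 of 7 genes above and a median difference of 0.01. No member was at least 2-fold higher, against 1.12% of all 12733 measured genes, and Fads1 was at least 2-fold lower, against 0.298%. At 1.5-fold, Scd2 was higher, against 2.96% of all genes, and Idi1 and Fads1 were lower, against 1.92%. Beyond 2 scanner errors, Sqle and Scd2 were higher, against 4.37% of all genes, and Idi1, Insig1 and Fads1 were lower, against 3.08%. Both doses share the control array, so anything particular to that array enters both sets of differences.

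**Figure D1:**
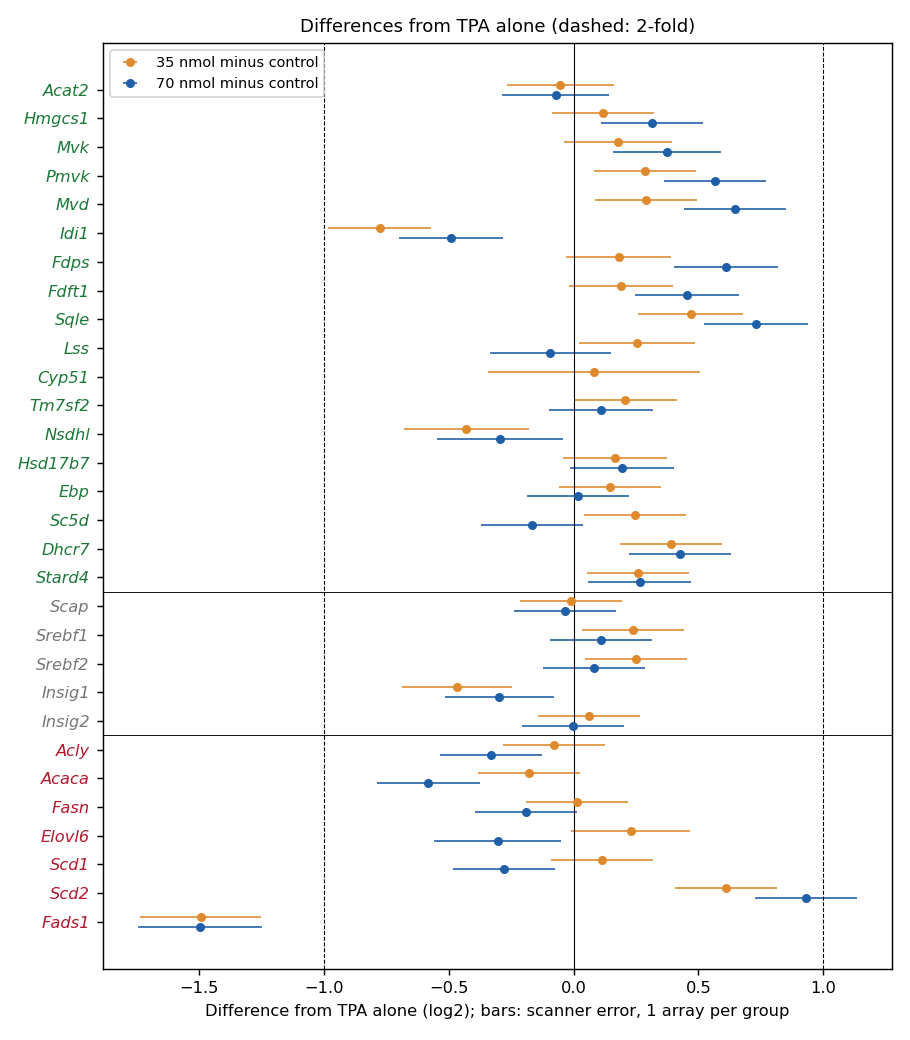
Difference from TPA alone (log2) of the 30 members well above background on at least 1 array, at 35 nmol (orange) and 70 nmol (blue), with bars for the scanner error of 1 array against 1 array and dashed lines at 2-fold. Cyp51 has no 70 nmol point because it was not well above background there. Fads1 lies past the 2-fold line at both doses, and Scd2, at 0.93, lies just inside it at 70 nmol. Under spike-in scaling all points move left by 0.36 (70 nmol) or 0.42 (35 nmol), and 7 of 29 members (70 nmol) and 20 of 30 (35 nmol) change sign.

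Between the doses, 12 of 17 sterol branch genes lay above the median of all genes in 70 minus 35 nmol, with a median difference of 0.13. In the fatty acid branch 1 of 7 did, with a median of -0.25. No member differed at least 2-fold in either direction, against 0.92% of all 12388 measured genes higher and 0.718% lower. None differed 1.5-fold either, against 3.67% higher and 2.85% lower. Fdps was higher by more than 2 scanner errors, against 5.63% of all genes, and Sc5d and Elovl6 were lower, against 4.93%.

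**Figure D2:**
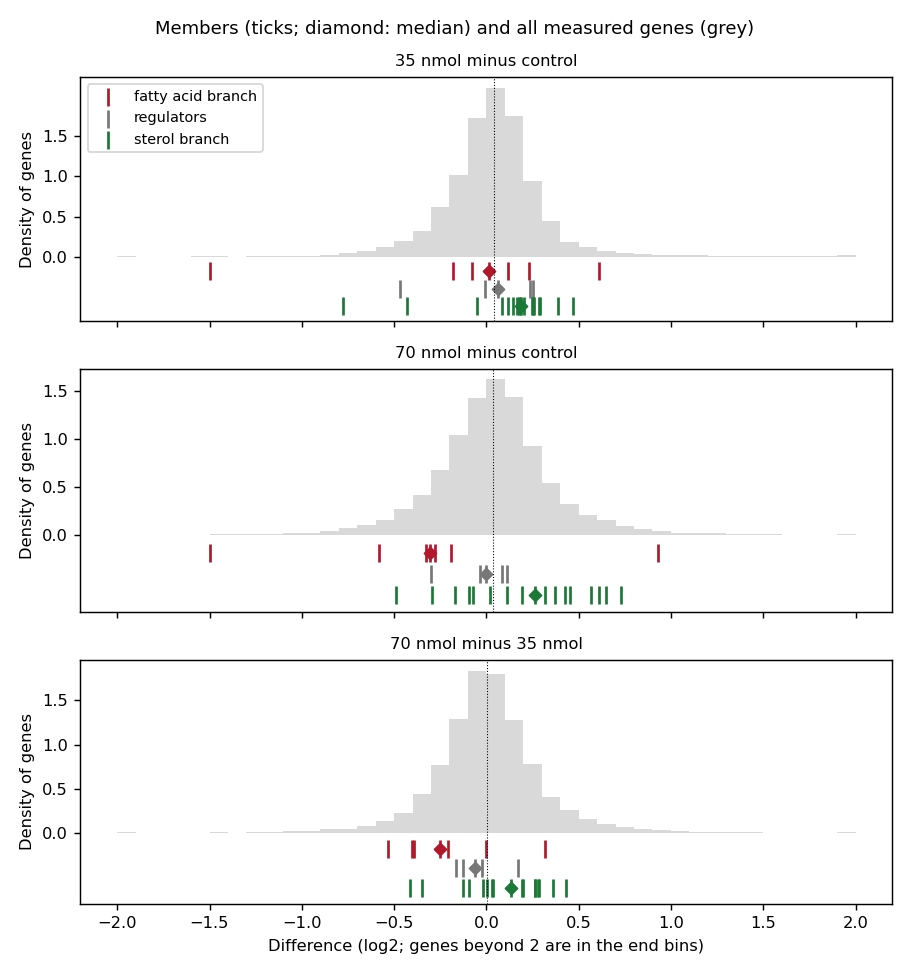
Differences of the members (ticks, by branch) against the distribution over all measured genes (grey, density, values beyond 2 drawn at the edge) for 35 nmol minus control, 70 nmol minus control and 70 minus 35 nmol, on the log2 scale with the median of all genes dotted and that of each branch as a diamond. At 70 nmol 11 of 17 sterol branch genes sit to the right of the dotted line and 6 of 7 fatty acid branch genes to its left, and nearly all lie within the bulk of the distribution.

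The upper mevalonate pathway starts from the condensation of acetyl-CoA. Acat2, the cytosolic thiolase that joins acetyl-CoA units, had levels of -0.54, -0.60 and -0.61 at 0, 35 and 70 nmol. Hmgcs1, the HMG-CoA synthase whose promoter carries the TCACCCCAC match, had levels of 2.07, 2.19 and 2.39. The 3 Acat2 levels differed by less than the scanner error, while Hmgcs1 was highest at 70 nmol, with a difference from control of 0.32. Under spike-in scaling the Hmgcs1 difference was -0.04, so its direction holds only relative to other genes.

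The kinases and the decarboxylase that turn mevalonate into isopentenyl diphosphate were ordered by dose. Mvk, mevalonate kinase, had levels of -0.96, -0.78 and -0.58 at 0, 35 and 70 nmol. Pmvk, phosphomevalonate kinase, had levels of 2.67, 2.96 and 3.24, and its 2 probes gave differences of 0.57 and 0.52 at 70 nmol. Mvd, the decarboxylase, had levels of 2.26, 2.55 and 2.91, a difference of 0.65 (1.57-fold) at 70 nmol. Each was lowest in control cells and highest at 70 nmol, except that under spike-in scaling all 3 were below control at 35 nmol. Steps between neighbouring doses were within 2 scanner errors.

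Idi1, the isomerase that makes dimethylallyl diphosphate, went the other way. Its levels were 0.52 in control cells, -0.25 at 35 nmol and 0.03 at 70 nmol, so the control was highest and the 35 nmol array lowest. The differences from control were -0.49 at 70 nmol and -0.78 at 35 nmol (1.71-fold lower). The array's design places this probe on chromosome 2, at 53516550 to 53516609 of mm8, while RefSeq places Idi1 on chromosome 13, and the probe was matched by symbol and not by accession. Whether it reports the enzyme's transcript was not tested. Without Idi1, a set looked at after the values were seen, the sterol branch had 11 of 16 genes above the median of all genes at 70 nmol and 15 of 17 at 35 nmol.

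The next enzymes lead to squalene and lanosterol. Fdps, farnesyl diphosphate synthase, had levels of -0.61, -0.43 and 0.00 at 0, 35 and 70 nmol, a difference of 0.61 (1.53-fold) between 70 nmol and control. Fdft1, squalene synthase, had levels of -0.49, -0.30 and -0.04, and its 2 probes gave 0.46 and 0.52 at 70 nmol. Sqle, squalene epoxidase, had levels of -0.65, -0.18 and 0.08. Sqle had the largest difference of the sterol branch at both doses, 0.73 (1.66-fold) at 70 nmol and 0.47 (1.38-fold) at 35 nmol. Among all measured genes these stood at percentiles 96.6 and 95.5. Its probe lies on chromosome 15, at 59160510 to 59160569 of mm8. Under spike-in scaling Sqle was 0.37 at 70 nmol and 0.05 at 35 nmol, whereas Mvd (0.29 and -0.13) and Fdps (0.25 and -0.24) kept their sign only at 70 nmol. Lss, lanosterol synthase, had levels of -1.69, -1.44 and -1.79, and its 3 probes gave -0.09, -0.03 and 0.13 at 70 nmol, the brightest first.

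**Figure D3:**
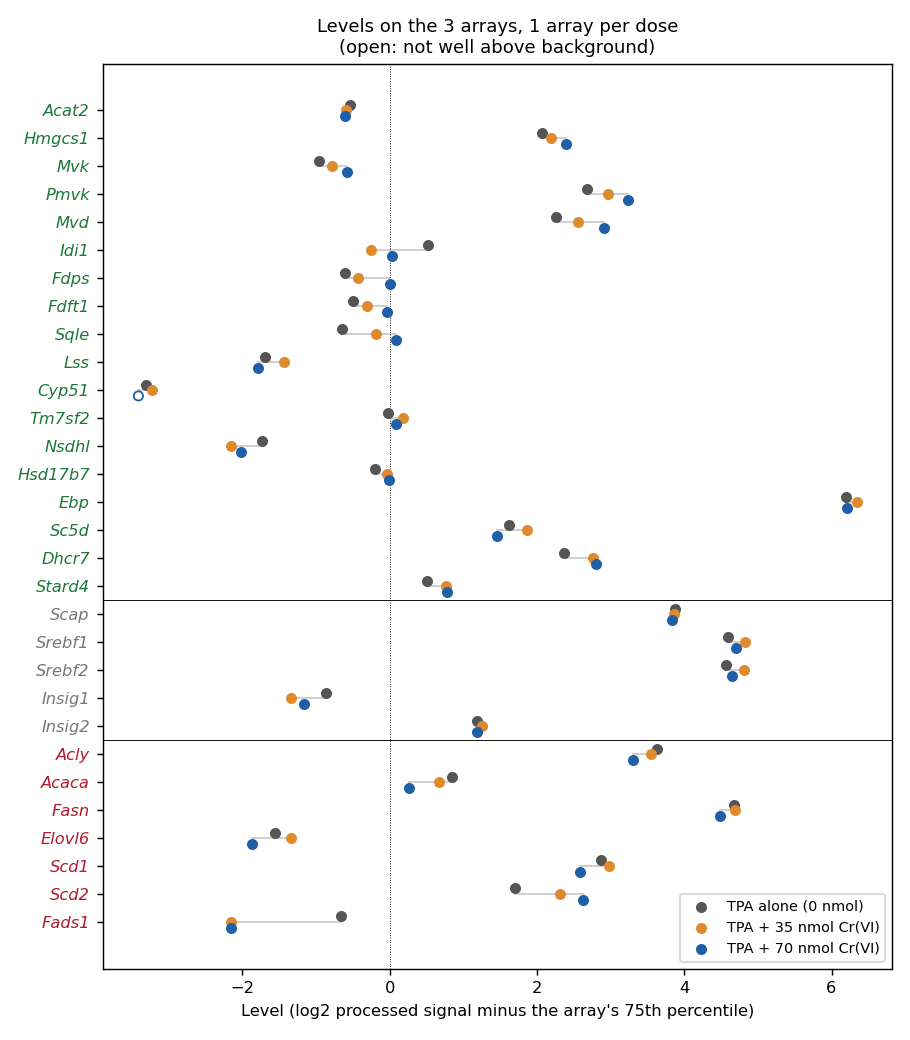
Level of each of the 30 members (log2 processed signal minus the 75th percentile of its array) with 1 point per array, control grey, 35 nmol orange and 70 nmol blue, grouped as sterol branch (green names), regulators (grey names) and fatty acid branch (red names). Open points were not well above background. Pmvk, Mvd, Fdps and Sqle step upward with dose (under spike-in scaling Pmvk, Mvd and Fdps are below control at 35 nmol), while Fads1 has its control point apart from the other two.

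The enzymes that trim lanosterol to cholesterol were more mixed. Cyp51, the lanosterol demethylase, was dim, with levels of -3.23 at 35 nmol and -3.31 in control cells, and at 70 nmol it was not well above background. Tm7sf2, a sterol reductase, had levels of -0.03, 0.18 and 0.08 at 0, 35 and 70 nmol. Nsdhl, a decarboxylating dehydrogenase, had -1.73, -2.16 and -2.03. Nsdhl was thus highest in control cells, with differences of -0.30 at 70 nmol and -0.43 at 35 nmol. Hsd17b7, a 3-ketosteroid reductase, had -0.20, -0.04 and -0.01, but its 2 probes gave opposite signs at 70 nmol, 0.19 and -0.25. Ebp, the sterol isomerase, had 6.19, 6.34 and 6.21, a spread within the scanner error.

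The last steps also differed from each other. Sc5d, the sterol desaturase, had levels of 1.62, 1.87 and 1.45 at 0, 35 and 70 nmol, so the 70 nmol array was lowest and differed by -0.41 from 35 nmol. Dhcr7, which reduces 7-dehydrocholesterol, had 2.37, 2.76 and 2.79 on its brightest probe. That gave a difference of 0.43 at 70 nmol, while the other probe gave -0.31, so the direction for Dhcr7 depends on the probe. Stard4, a carrier that moves cholesterol between membranes, had 0.51, 0.77 and 0.78, about 1.20-fold higher at either dose than in control cells, but lower than control at both under spike-in scaling.

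**Figure D4:**
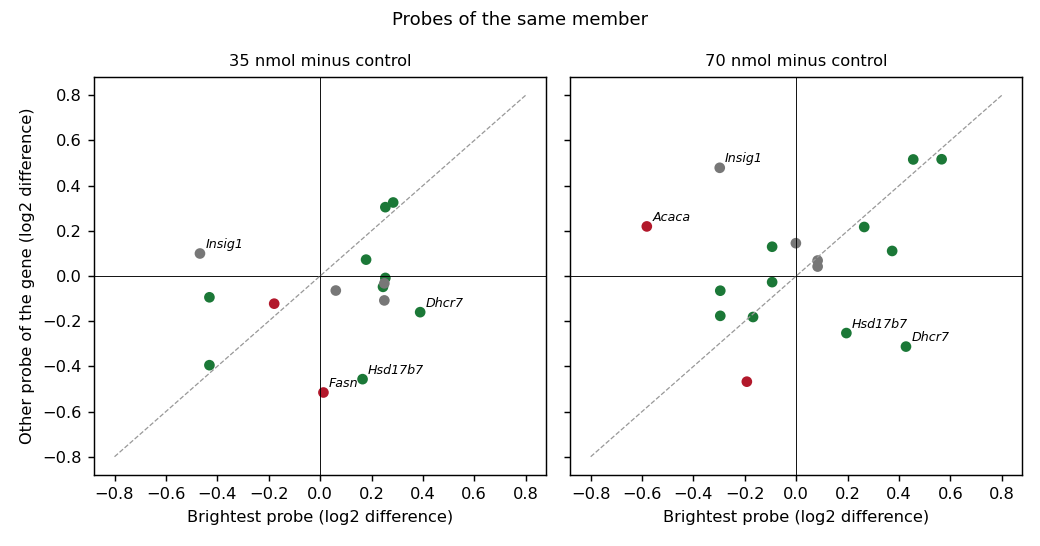
Difference of the brightest probe against that of a second probe of the same member (log2), for members with several probes well above background. Points in the upper left and lower right corners are members whose probes disagree in sign: 6 of 14 members at 70 nmol minus control and 8 of 12 at 35 nmol minus control.

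Probes of a member often disagreed at this size of difference. Of 14 members with several measured probes, 6 had probes of opposite sign at 70 nmol, and the median gap between probes was 0.15. At 35 nmol 8 of 12 did, with a median gap of 0.28. Besides Lss, Hsd17b7 and Dhcr7, the disagreeing members at 70 nmol were Insig1 (-0.30 and 0.48), Insig2 (-0.0016 and 0.14) and Acaca (-0.58 and 0.22). At 35 nmol Hsd17b7 gave 0.17 and -0.46, Dhcr7 0.39 and -0.16, Lss 0.25 against 0.30 and -0.01, Sc5d 0.24 and -0.05, and Insig2 0.06 and -0.06. In 70 minus 35 nmol the 6 that disagreed were Lss (-0.35 against -0.33 and 0.14), Nsdhl (0.13 against 0.33 and -0.08), Dhcr7 (0.04 and -0.15), Srebf2 (-0.17 against 0.07 and 0.18), Insig2 (-0.06 and 0.21) and Fasn (-0.21 and 0.05). Probes of the same sign could also differ in size, as at 70 nmol for Mvk (0.37 and 0.11) and Fasn (-0.19 and -0.47). Taking the mean over a gene's probes brought the sterol branch median at 70 nmol from 0.23 above all genes to 0.086.

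The genes that control synthesis stayed under 1.5-fold in every comparison. Scap, the escort of SREBP, had levels of 3.87, 3.86 and 3.83 at 0, 35 and 70 nmol. Srebf1, which encodes SREBP-1, had 4.59, 4.83 and 4.70, and Srebf2, which encodes SREBP-2, had 4.57, 4.82 and 4.65. Both Srebf genes were highest at 35 nmol by 0.24 and 0.25 over control, close to 1 scanner error, and other Srebf2 probes gave -0.03 and -0.11. Insig1, itself a sterol-responsive SREBP target, had -0.87, -1.34 and -1.17. It lay 0.47 below control at 35 nmol on its brightest probe, and the other probe gave 0.10. Insig2, the second INSIG, had 1.19, 1.25 and 1.19. These are transcript levels, and the cutting of SREBP was not measured.

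In the fatty acid branch the synthesis enzymes were lower at 70 nmol than the median of all genes. Acly, which makes cytosolic acetyl-CoA from citrate, had levels of 3.63, 3.55 and 3.31 at 0, 35 and 70 nmol. Acaca, acetyl-CoA carboxylase, had 0.85, 0.67 and 0.26, a difference of -0.58 at 70 nmol on the brightest probe. Fasn, fatty acid synthase, had 4.68, 4.69 and 4.49, and its other probe gave -0.47 at 70 nmol and -0.52 at 35 nmol. Elovl6, the elongase of palmitate, had -1.56, -1.34 and -1.87. On its brightest probe each was lowest at 70 nmol. The other Fasn probe was lowest at 35 nmol (levels -1.13, -1.65 and -1.60), and another, dim Acaca probe gave 0.22 at 70 nmol. Elovl6 differed most between the doses, by -0.53 in 70 minus 35 nmol.

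The stearoyl-CoA desaturases, which make monounsaturated fatty acids, parted. Scd1 had levels of 2.87, 2.98 and 2.59 at 0, 35 and 70 nmol, a difference of -0.28 between 70 nmol and control. Scd2 had 1.70, 2.31 and 2.63, so it was lowest in control cells and highest at 70 nmol. It was 1.90-fold higher at 70 nmol (0.93, percentile 98.0 of all measured genes) and 1.53-fold higher at 35 nmol (0.61, percentile 97.2). Under spike-in scaling Scd2 was still higher, by 0.57 and 0.19. The Scd2 probe lies on chromosome 19, at 44359845 to 44359904 of mm8, near Scd1, and binding of one gene's RNA to the other's probe was not tested.

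Fads1, the delta-5 desaturase of polyunsaturated fatty acid synthesis, was the only member to differ at least 2-fold. Its levels were -0.66 in control cells, -2.16 at 35 nmol and -2.16 at 70 nmol, with unscaled processed signals of 170, 46.1 and 48.0. The 2 chromium arrays gave the same level, and the control array stood apart. Mast cell markers (summed above) were also highest in control cells. So were the neutrophil genes Cxcr2 (levels -0.93, -3.00 and -2.32 at 0, 35 and 70 nmol) and Lcn2 (-0.69, -2.15 and -1.98). The neutrophil genes S100a8 (-0.41, -0.31 and 0.05) and S100a9 (2.36, 1.11 and 3.37) were instead highest at 70 nmol. The neutrophil sum, which is mostly S100a9, was too. The part of these cells in the Fads1 difference was not tested. The differences were -1.50 at both doses (2.82-fold lower), at percentile 0.21 of all measured genes at 70 nmol and 0.13 at 35 nmol. A single probe carries this result, on chromosome 19 at 10263085 to 10263144 of mm8. With normexp background correction the differences were -0.86 at 70 nmol and -0.77 at 35 nmol, under 2-fold, and the stricter filter on dim probes left the gene out. Its neighbour in the pathway, the delta-6 desaturase Fads2, gave no level to compare.

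**Figure D5:**
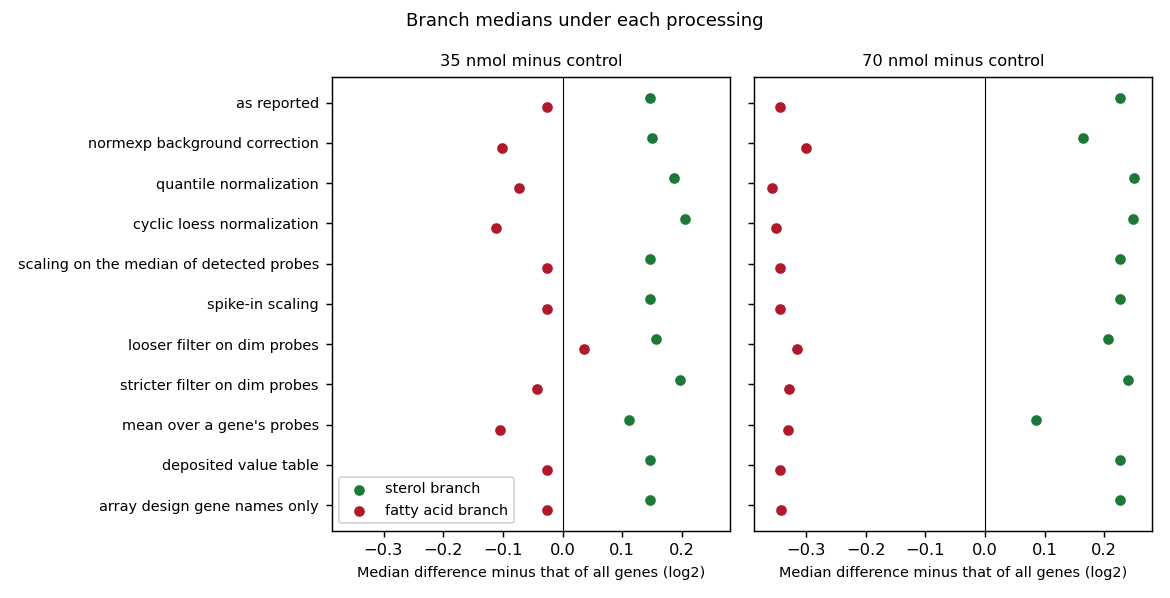
Median difference of each branch minus that of all measured genes (log2) under each processing setting, for 35 nmol minus control (left) and 70 nmol minus control (right). The sterol branch stays above 0 in every setting drawn (lowest 0.086, with the mean over a gene's probes), and the fatty acid branch stays below 0 at 70 nmol minus control but reaches 0.04 at 35 nmol minus control with the looser filter. Scaling on spike-in RNA or on the median of detected probes shifts all genes equally, so those settings could not move a point.

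Other genes of the same pathways were counted from lists outside the 31. On the sterol and isoprenoid side 11 of 12 genes were measured. Above the median of all genes were 8 of them at 70 nmol, 8 at 35 nmol and 5 in 70 minus 35 nmol. None differed 1.5-fold in any comparison, against 5.55% of all genes higher and 3.83% lower at 70 nmol. The shares of all genes were 2.96% and 1.92% at 35 nmol, and 3.67% and 2.85% in 70 minus 35 nmol. Acss2, which makes acetyl-CoA from acetate, differed by 0.46 at 70 nmol and 0.17 at 35 nmol. Tmem97, a sterol-responsive membrane protein, differed by 0.40 and 0.31, and Soat1, which esterifies cholesterol for storage, by 0.27 and 0.36. On their brightest probes these 3 all lay above the median of all genes at both doses. Other Soat1 probes gave -0.10 and -0.04 at 70 nmol, and 0.09 and 0.18 at 35 nmol.

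On the fatty acid side of those lists, 14 of 18 genes were measured at 70 nmol and 15 at 35 nmol. Of these, 8 of 14 lay above the median of all genes at 70 nmol, 10 of 15 at 35 nmol and 12 of 14 in 70 minus 35 nmol, beside 1, 3 and 1 of 7 in the fatty acid branch. At 70 nmol none was at least 2-fold higher, against 1.63% of all genes, or lower, against 1.08%. At 35 nmol 1 was at least 2-fold higher, against 1.12% of all genes, and none lower, against 0.298%. The higher one was Thrsp, a lipogenic gene of liver and fat, with levels of -3.16 in control cells, -1.51 at 35 nmol and -3.20 at 70 nmol. Its control and 70 nmol levels were dim, and the lowest level well above background at 70 nmol was -3.26. In 70 minus 35 nmol Thrsp was the 1 gene at least 2-fold lower (-1.69), against 0.718% of all genes. Its highest level was on the 35 nmol array, where the hepatocyte markers also had their highest sum, 71.4. Acacb, the mitochondrial acetyl-CoA carboxylase, had levels of -0.95, -0.60 and -0.08. Acsl3, which activates fatty acids with CoA, was dim, with levels of -3.43, -2.87 and -2.76. The lowest level well above background in control cells was -3.65. Acsl3 differed from control by 0.67 at 70 nmol (scanner error 0.39) and 0.56 at 35 nmol (error 0.40), both within 2 errors. Me1, malic enzyme, differed by -0.33 and -0.69. Acacb was thus higher at 70 nmol by 0.87. Acaca, which supplies synthesis, differed by -0.58 on its brightest probe and by 0.22 on another, so the contrast depends on the probe.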

How the data were processed

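The deposited spot intensity values are processed signals of Agilent Feature Extraction 10.5.1.1, with background already subtracted, per the file headers. The same headers give mm8 as the build of the probe positions. Spots well above background carry the software's own flag (multiple 13). The deposited value table holds log2 values, which equalled the log2 processed signal minus a constant per array (8.00, 7.61 and 7.67 at 0, 35 and 70 nmol) within 0.01 for at least 99.8% of the probes with that flag. The medians of its columns were -3.60, -3.74 and -3.78, so its scale and direction are known and genes were not centred.

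Here the log2 processed signal was scaled by the 75th percentile of each array's 43379 spots that are not controls (8.07, 7.69 and 7.74). Outlier spots were left out and spots of a probe averaged. Probes were named through accession (24375 probes), then symbol or synonym, with the RefSeq table of GRCm38.p6. Of a gene's probes that were well above background on some array, the brightest stood for the gene. A comparison used the gene if both of its arrays had that probe well above background and unsaturated. Each group had 1 array, so no test was run and no interval over animals exists. The number of arrays limits the precision. A gene counted as called past 2-fold, with 1.5-fold as a second rule. The error of a difference combines the scanner's error of both signals. Summed signals are linear scaled signals over the markers or members of a list. Every member well above background on at least 1 array is named with its levels, with other probes given where they oppose it or differ by over 0.5, and of each list of other pathway genes the 4 with the largest difference from control are named, apart from 1 that is not reported here. The members, lists and rules were chosen with earlier results of these data known. Spike-in scaling used 4 of 10 spike-in probes. The alternatives were 10 other settings of the values and thresholds of 1.5-fold and 3-fold. The tools were limma 3.58.1 in R 4.3.3, and pandas 2.3.3, numpy 2.4.6 and matplotlib 3.10.9 in Python 3.11.15.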

Additional observations from a re-analysis of the deposited data

How the results depend on the processing

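No paired analysis was possible because each group had 1 array. Fads1, the member past 2-fold, kept its sign against control in every setting that measured it. Smaller differences changed sign: with spike-in scaling in 7 of 29 members at 70 nmol and 20 of 30 at 35 nmol, and with the mean over a gene's probes in 4 and 3. The fatty acid branch median at 35 nmol, relative to all genes, was -0.026 and with the looser filter 0.036, and that of all members at 70 nmol was -0.020 and with the mean over probes 0.033. The median of the sterol branch relative to all genes was 0.086 at 70 nmol minus control with the mean over a gene's probes. With the stricter filter on dim probes, which leaves fewer genes, it was 0.042 in 70 minus 35 nmol, and that of all members was -0.090. The same filter measured 17 members at 70 nmol, 17 at 35 nmol and 16 in 70 minus 35 nmol, against 29, 30 and 29 as reported. Of these members 8, 12 and 6 were above the median of all genes, among them 5, 7 and 5 sterol branch genes. In the fatty acid branch 2 genes were above it at 70 nmol with the looser filter, and 2 in 70 minus 35 nmol with quantile normalization. At a threshold of 1.5-fold, 4 members were higher at 70 nmol, and 1 was higher and 2 lower at 35 nmol. At 3-fold, with normexp background correction and with the stricter filter, 0 members were lower at either dose. With spike-in scaling 2 were lower at 35 nmol.

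Over all measured genes the counts past 2-fold also moved. At 70 nmol 204 were higher and 136 lower, against 80 and 48 with normexp, 619 and 742 with the looser filter, 88 and 53 with the stricter filter and 87 and 400 with spike-in scaling. At 35 nmol 143 were higher and 38 lower, against 55 and 10 with normexp, 577 and 541 with the looser filter, 25 and 12 with the stricter filter and 71 and 251 with spike-in scaling. Spike-in scaling lowered every difference from control by a constant. At 70 nmol the looser filter measured 17189 genes and the stricter filter 7859, against 12541 as reported. Other causes were not tested. With 1 array per group, differences near the scanner error of 0.21 cannot be told apart from technical spread, and Cyp51 lies close to background.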
